A study of Mus musculus with 26 samples.

Results

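Among 13 single retinal cells from which Notch1 had been removed by Cre recombinase (N1-CKO), 4 carried a strong Mki67 signal and 9 did not, and the transcripts of these 4 cells were set beside those of the other 9. Mki67 encodes the Ki-67 protein, which coats mitotic chromosomes and is the usual marker of dividing cells. The cells were selected on their measured Mki67 signal: a cell was called Mki67-positive when the Mki67 probe set reached the 90th percentile of the signals on that cell's own array, array controls left out. By this rule N1-CKO cells 1, 2, 3 and 11 were positive, 4 of the 13 N1-CKO cells in a series of 26 cells. All mice were homozygous for a floxed Notch1 allele on a C57BL/6 background. N1-CKO cells were retinal cells that had received, at postnatal day 0, plasmids for CAG-driven Cre and for CALNL-GFP, a reporter that Cre switches on; cells of the comparison group, named WT, had received CAG:GFP and kept the floxed allele. CAG is active in most cell types, so Cre was not directed to a chosen type. Retinas developed in vivo until postnatal day 3, and single GFP-bright cells were picked by hand, 1 cell for each array. No label names the animal a cell came from, so each group stands as 1 sample, no test was made, and each SD below is a spread between cells.

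Notch1 is a receptor that, when bound by a ligand on a neighbouring cell, releases an intracellular fragment that switches on repressors of neuronal differentiation. In the newborn retina it helps to keep progenitors undifferentiated and dividing, and its loss is known to send many cells toward the photoreceptor fate. A progenitor passes from growth through DNA replication to mitosis, and genes of replication and of mitosis are transcribed in successive waves, the first driven mainly by E2F factors and the second by complexes that bind a promoter element called the CHR, often together with CCAAT boxes bound by NF-Y.

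The promoters of Mki67 and of 3 mitotic genes that were high in all 4 Mki67-positive cells, Top2a, Ube2c and Racgap1, are shown with that of Mcm7, a replication gene, because they carry these elements. Each runs from 250 bases before to 50 bases after the annotated start, taken from RefSeq on GRCm38.p6, 5′ to 3′ on the gene's strand. Mki67 lies on the minus strand at chr7:135716330-135716629, Top2a on the minus strand at chr11:99024140-99024439, Ube2c on the plus strand at chr2:164769679-164769978, Racgap1 on the minus strand at chr15:99651607-99651906, and the Mcm7 promoter shown, 1 of 2 in the table, on the minus strand at chr5:138171834-138172133. Capitals mark every match, on either strand, to the CHR (TTTGAA), the CCAAT box (CCAAT) or an E2F motif (TTTCCCGC, TTTCGCGC or TTTGGCGC).
Mki67: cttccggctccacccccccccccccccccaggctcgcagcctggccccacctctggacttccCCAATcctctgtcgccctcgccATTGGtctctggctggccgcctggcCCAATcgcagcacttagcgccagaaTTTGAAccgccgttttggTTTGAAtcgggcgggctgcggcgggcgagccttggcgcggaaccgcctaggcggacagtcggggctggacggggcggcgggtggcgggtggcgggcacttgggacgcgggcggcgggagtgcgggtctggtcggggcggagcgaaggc
Top2a: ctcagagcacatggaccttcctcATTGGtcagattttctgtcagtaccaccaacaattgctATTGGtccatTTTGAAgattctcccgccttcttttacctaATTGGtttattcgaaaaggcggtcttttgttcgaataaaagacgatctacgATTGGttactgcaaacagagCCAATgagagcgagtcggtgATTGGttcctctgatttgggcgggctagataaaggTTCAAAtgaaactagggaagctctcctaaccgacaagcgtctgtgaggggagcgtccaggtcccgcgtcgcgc
Ube2c: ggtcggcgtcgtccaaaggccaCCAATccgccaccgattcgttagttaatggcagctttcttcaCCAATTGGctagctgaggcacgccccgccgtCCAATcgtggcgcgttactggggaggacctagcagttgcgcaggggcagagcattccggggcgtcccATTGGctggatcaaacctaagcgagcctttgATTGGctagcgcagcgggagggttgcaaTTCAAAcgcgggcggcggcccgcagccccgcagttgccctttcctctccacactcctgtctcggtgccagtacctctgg
Racgap1: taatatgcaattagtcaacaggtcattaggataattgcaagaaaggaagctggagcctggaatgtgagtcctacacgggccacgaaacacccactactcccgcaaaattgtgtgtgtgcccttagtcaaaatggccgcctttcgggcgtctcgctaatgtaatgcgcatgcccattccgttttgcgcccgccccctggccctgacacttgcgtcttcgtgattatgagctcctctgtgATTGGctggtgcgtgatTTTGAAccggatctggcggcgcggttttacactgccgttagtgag
Mcm7: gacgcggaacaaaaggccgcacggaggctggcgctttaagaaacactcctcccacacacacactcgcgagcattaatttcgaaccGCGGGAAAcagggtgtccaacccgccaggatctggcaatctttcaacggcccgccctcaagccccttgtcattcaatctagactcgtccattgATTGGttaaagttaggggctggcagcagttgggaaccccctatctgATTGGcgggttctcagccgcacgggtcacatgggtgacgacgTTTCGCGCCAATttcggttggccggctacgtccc
The first 4 held the CHR and a CCAAT box and no E2F motif. In Ube2c, CCAAT boxes of both strands overlapped by 2 bases. The Mcm7 window held 2 E2F motifs, 1 of which overlapped a CCAAT box by 1 base, and no CHR. The Mcm7 promoter not shown, at chr5:138171217-138171516, held a CCAAT box but neither an E2F motif nor the CHR. Over all 32851 promoters of this length in the table, 17.9% held the CHR, 37.4% a CCAAT box, 1.84% an E2F motif, and 6.95% both the CHR and a CCAAT box. The promoters shown were chosen because they carry these elements, so setting them beside these shares shows no enrichment. A match describes these letters only and does not show that a factor binds there.

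The same search over the lists used below described all their genes with a RefSeq promoter, whatever their signal. The CHR was found for 22 of 43 genes of mitotic kinases, kinetochore and checkpoint (51.2%), 24 of 33 of the spindle, kinesin and cytokinesis list (72.7%) and 15 of 28 of the condensin and mitotic chromatin list (53.6%), beside 20.2% of all 27025 genes. Replication genes held it in 8 of 49 cases (16.3%). An E2F motif stood in 16 of these 49 replication promoters (32.7%), in 8 of 28 chromatin promoters (28.6%), in 3 of 33 spindle promoters and in 2 of 43 of the mitotic kinase list, beside 2.12% of all genes.

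The arrays themselves differed in ways that touch all values. Each deposited array had been scaled to a common mean, and signals below 25 were raised to 25 before log2 was taken, so 4.64 is the lowest value possible. The Gapdh control has probe sets at its 3′ and 5′ ends, and their ratio, which is high where cDNA is short, lay between 1.46 and 2.72 in the Mki67-positive cells and between 1.96 and 245 in the others, with 5 of the 9 others above 3. The same ratio of the Actb control ran from 1.43 to 12.75 in the positive cells, with a median of 6.22. In the others it ran from 0.857 to 2351, with a lower median of 3.08, so the 2 controls did not rank the groups alike. The 18S ribosomal RNA control parted the arrays into a low and a high set, and 2 of the 4 positive and 6 of the 9 other cells lay in the low set. Probe sets above a common signal of 1230 numbered 4061 to 5643 in positive and 2822 to 5711 in other cells. Their part in the results was not tested. Notch1 itself was detected in 3 of 4 positive and 5 of 9 other N1-CKO cells and in 10 of 13 WT cells. The labels do not say which stretch of the gene Cre deletes, so this signal does not check the deletion.

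The Mki67 signal parted the cells widely. On the linear scale it was 27147 in cell 1, 17650 in cell 2, 30632 in cell 3 and 23708 in cell 11, which placed it between percentiles 98.8 and 99.7 of those arrays. In the other 9 cells it ran from 9.61 to 600 with a median of 33.7. Nearest the threshold from below was cell 10, with 600 against its array's threshold of 796 (percentile 83.0). From above, cell 11 had the lowest percentile, 98.8, with 23708 against 786, and cell 2 had the smallest ratio of signal to threshold, with 17650 against 2112. Only 1 probe set measured Mki67. These values chose the cells and are given as a description.

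**Figure D1:**
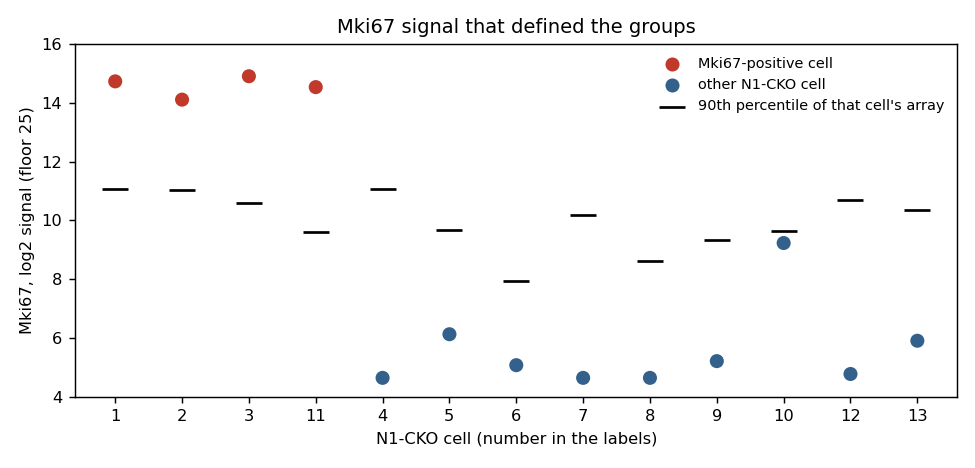
Log2 Mki67 signal (points) and the 90th percentile of the same array (black bars) for each N1-CKO cell. Cells 1, 2, 3 and 11 lie between 14.11 and 14.90, far above their thresholds, and cell 10, at 9.23, lies just under its own.

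Across 18193 other genes, 1472 had a mean at least 2 higher on the log2 scale (4-fold) in the Mki67-positive cells, 8.09% of all, and 749 had a mean at least 2 lower, 4.12%. The median difference over all genes was -0.22, and 40.3% of genes had the higher mean in the positive cells. For only 10 genes did every positive cell exceed every other cell (0.055%), and for 8 every positive cell lay below every other cell (0.044%). These differences mix how many cells carried a transcript with how strong it was in them, since most genes were near the floor in some cells of either group. Detected below means a signal at or above the 90th percentile of the cell's own array, which is 4504 probe sets in each cell. Pairs of positive cells correlated across genes, with 1 probe set for each, with a median r of 0.50 (6 pairs). Pairs of other cells correlated with 0.37 (36 pairs), and pairs across the groups with 0.44.

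Genes of mitotic kinases, the kinetochore and the spindle checkpoint stood highest of the lists. Of 53 measured members, 30 were at least 2 higher in the positive cells and 0 at least 2 lower, 56.6% against the 8.09% of all genes, and the median difference was 2.18 against -0.22. Cells 1, 2 and 3 had 20, 16 and 22 members detected, and cell 11 had 6. The other 9 cells had 1 to 7, so cell 11 lay among them in this count. A total of 20 members were detected in positive cells and in no other cell, 2 in other cells and in no positive one, and 17 in both. Over all 18193 genes the same counts were 780, 3370 and 5011. For this and every list below, the shares over all genes are 8.09% at least 2 higher and 4.12% at least 2 lower. These shares include genes detected in no cell. Among the 6474 genes detected in at least 2 N1-CKO cells, 19.3% were at least 2 higher and 10.2% at least 2 lower. Their median difference was 0.36. The lists hold both detected and undetected members, so neither set of shares matches them exactly. A list share of 8.09% to 19.3% at least 2 higher does not stand out from both.

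Ube2c, the ubiquitin-conjugating enzyme with which the anaphase-promoting complex marks cyclin B and securin for destruction, was the member seen in every positive cell. Its log2 signal was 13.26, 12.11, 13.11 and 12.17 in cells 1, 2, 3 and 11. In the others it ran from 4.64 to 13.03 with a median of 4.64, and only cell 6, the highest, was detected. The groups therefore overlapped through 1 cell, and the means were 12.66 ± 0.61 (SD, 4 cells) and 5.77 ± 2.75 (9 cells).

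Cdk1, the kinase that drives entry into mitosis, was at 12.97 in cell 1 and 13.05 in cell 3, but at 7.25 in cell 2 and 7.52 in cell 11. It was detected in none of the other 9 cells, whose highest value was 7.42. Pbk, a mitotic protein kinase, was at 12.33, 12.44 and 14.13 in cells 1, 2 and 3 and at the floor in cell 11, with 4.64 to 8.65 in the others. Cdca3, which promotes the destruction of a mitotic inhibitory kinase, followed the same cells, at 12.82, 12.34 and 13.05 and at the floor in cell 11. The other 2 probe sets of Cdca3, detected in no cell, gave differences of -0.29 and -0.64, so its difference of 5.37 rests on 1 probe set.

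Further members, like any gene given here only as a member past the 4-fold difference, were named after their values were seen. Birc5 and Incenp, subunits of the chromosomal passenger complex, and Cks2, a small partner of Cdk1, were each detected in cells 1, 2 and 3 and not in cell 11. Birc5 was also detected in 1 of the other cells, Incenp in 2 and Cks2 in 2. Cks1b, the close relative of Cks2, had a difference of the opposite sign, -1.24, with 2 of 4 positive and 5 of 9 other cells detected. A high mean was thus common to most, not all, of this list.

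Genes of the spindle, of kinesin motors and of cytokinesis were also higher: 11 of 37 members were at least 2 higher and 0 at least 2 lower, with a median of 0.96. Members detected numbered 10, 6, 14 and 7 in cells 1, 2, 3 and 11 and 2 to 6 in the other cells. Racgap1, a GTPase-activating subunit of the centralspindlin complex that sets the cleavage plane, was at 12.15, 13.52, 13.09 and 13.63 in cells 1, 2, 3 and 11. The others ran from 4.64 to 11.80 with a median of 6.01, so the groups did not overlap, the highest of the others being cell 7. Of its other 2 probe sets, 1 gave a difference of 3.34 and the other 0.43, against 6.44 for the one used.

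Kpna2, an importin that carries cargo into the nucleus and helps assemble the spindle, was detected in all 4 positive cells, at 11.22, 11.15, 11.85 and 12.38, and in 3 of the 9 others. Kif22, a chromosome-arm kinesin, was detected only in cells 1 and 3, at 13.39 and 11.14, and was at 5.11 in cell 11. Spag5, a spindle-pole protein, showed the same 2 cells, at 12.49 and 11.74. Both genes were detected in 0 of the other 9 cells, whose highest values were 8.96 for Kif22 and 8.41 for Spag5, both in cell 10. The positive cells thus differed among themselves in which spindle genes were bright.

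Among genes of condensin, topoisomerase and mitotic chromatin, 12 of 27 were at least 2 higher and 1, the nuclear lamina protein Tmpo, at least 2 lower, with a median of 1.82. Cells 1, 2, 3 and 11 had 10, 14, 16 and 9 members detected, and the others 4 to 10. Top2a, the topoisomerase that untangles sister chromatids, was at 14.01, 12.83, 14.32 and 10.99 in cells 1, 2, 3 and 11. The other cells ran from 4.64 to 9.67 with a median of 4.64, so the groups did not overlap, and the means were 13.04 ± 1.51 and 6.05 ± 2.14. Cells 6 and 9 were the highest of the others, at 9.67 and 9.42 against their arrays' thresholds of 7.94 and 9.33. The 2 other Top2a probe sets were detected in no N1-CKO cell and gave differences of 0.26 and 0.34.

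Condensin subunits varied among the positive cells: Ncapg, Smc4 and Ncaph2 were each detected in 3 of the 4, Smc2 and Ncaph in 2, Ncapd2 and Ncapg2 in 1 and Ncapd3 in 0. Ncapg was at 13.44, 13.60 and 10.84 in cells 1, 2 and 3 and at 7.26 in cell 11, and in 0 of 9 other cells was it detected. Smc4, a core ATPase of condensin, was at 11.86, 10.02, 11.84 and 12.36 in cells 1, 2, 3 and 11, with a median of 5.72 in the others, of which only cell 8, at 12.07, was detected. Ncaph2, of condensin II, was at 12.92, 11.91, 8.10 and 14.91, but the highest value of all, 16.42, was that of cell 10, which had been placed among the others. Ncaph2 therefore overlapped widely.

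Genes of DNA replication and nucleotide supply were higher in the positive cells to a smaller extent. Of 61 members, 19 were at least 2 higher and 5 at least 2 lower (Cdc7, Orc6, Lig1, Slbp and Brca2), with a median of 0.91. Orc6, of the complex that marks origins, had the lowest of these differences, -3.39. Cells 1, 2, 3 and 11 had 15, 16, 26 and 17 detected. In the others the count ran from 5 to 24, and the 24 were those of cell 4, in which Mki67 was at the floor, while the next highest count was 11. Cell 4 had signals for the helicase subunits Mcm2, Mcm3, Mcm4, Mcm5, Mcm6 and Mcm7, the loading factors Cdc6 and Cdt1 and the clamp Pcna. It also had the most probe sets above the common signal of all N1-CKO cells, 5711.

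Mcm7, a subunit of the replicative helicase, was at 13.90, 14.05, 13.93 and 13.64 in cells 1, 2, 3 and 11, an SD of 0.17. In the others it ran from 4.64 to 13.66 with a median of 7.89, and cells 12, 4 and 5 were detected. Its 3 other probe sets gave differences between 4.64 and 5.85, close to the 5.18 of the one used. Mcm2, of the same helicase, was at 11.71, 12.17, 11.28 and 13.98 in the positive cells, and cells 8 and 4 were detected among the others, at 12.86 and 12.76.

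Rrm1, the large subunit of the reductase that makes deoxynucleotides, was at 14.21, 11.37 and 14.06 in cells 1, 2 and 3 and at 9.12 in cell 11, below that array's threshold. Rfc4, a subunit of the clamp loader, differed from it in cells 1 and 11: it was at the floor in cell 1 and at 13.34, 12.83 and 14.92 in cells 2, 3 and 11. Only cell 4 was detected among the others, at 12.70. Singled out after their values were seen, Tipin, a protein that protects stalled forks, and Dut, which removes dUTP, were detected in all 4 positive cells, with 2 and 4 of the others. Cell 11, which had few mitotic members, was within the range of the other positive cells for replication members.

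**Figure D2:**
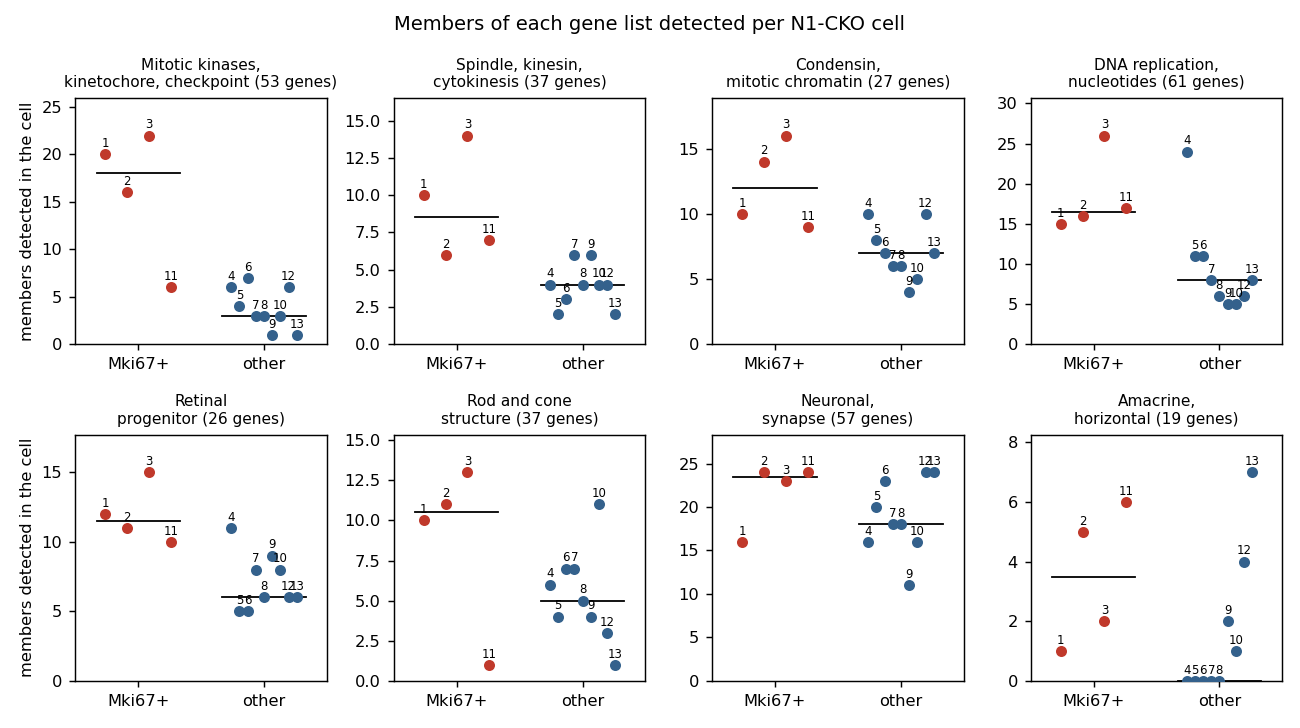
Members of 8 gene lists detected in each N1-CKO cell, with the cell's number beside its point and a line at each group's median. Cells 1, 2 and 3 stand above all others for mitotic genes (16 to 22 against at most 7), cell 11 does not (6), and cell 4 stands among the positive cells for replication genes (24).

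The G1 cyclins and their kinases showed no common direction. Of 26 members, 4 were at least 2 higher (Ccnd1, E2f7, Tfdp2 and Skp2) and 1, Mycl, at least 2 lower, and the median was 0.26. Ccnd1, cyclin D1, the partner of Cdk4 and Cdk6 that is abundant in retinal progenitors, was at 14.80, 13.80, 15.92 and 14.74 in cells 1, 2, 3 and 11. Of the other 9 cells 6 were also detected, with a range of 4.64 to 15.17 and a median of 13.27. Cells 8, 13 and 5 were at 4.64, 5.77 and 6.16, so the difference of 4.05 came mostly from these 3 cells, and the groups overlapped. The 2 other Ccnd1 probe sets gave 1.78 and 4.86.

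Cdk6, one of those kinases, was detected in 0 of 4 positive cells and in cells 4 and 10 of the others, with a difference of -1.76. Mycl, an oncoprotein of the Myc family, was detected in cell 1 and in 6 of the 9 others, with a difference of -2.27. Rbl2, a pocket protein that holds E2F genes silent, was at 10.35 and 11.71 in cells 1 and 2, though only cell 2 passed its threshold, and at 5.31 and 4.64 in cells 3 and 11. None of the 3 separated the groups.

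Genes of cell cycle exit were not lower as a group: 5 of 27 were at least 2 higher (Cdkn2d, Ccng1, Mxd3, Fzr1 and Zfp36l1), 5 at least 2 lower (Cdkn1a, Gadd45a, Mxd4, Mxi1 and Ccndbp1), and the median was -0.08. Without cell 11 the median was 0.63. Mxd4, a repressor that opposes Myc, was at 4.72, 4.64, 12.11 and 8.96 in cells 1, 2, 3 and 11 and between 7.70 and 14.27 in the others, 7 of which were detected. Ccndbp1, a cyclin D1-binding inhibitor of proliferation, was detected in cell 2 and in 6 of the 9 others, with a difference of -3.70. Zfp36l1, which speeds the decay of mRNAs, went the other way, at 13.52, 11.84, 9.55 and 10.69 in the positive cells and detected only in cell 4 of the others, at 12.93. Cdkn2d, an inhibitor of Cdk4 and Cdk6, had a mean of 10.99 ± 1.64 in the positive and 7.08 ± 2.75 in the other cells. Cdkn1b, the p27 inhibitor and another gene chosen with its values in view, had signal in all 4 positive and 5 of 9 other cells.

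Retinal progenitor genes were higher in the Mki67-positive cells: 11 of 26 were at least 2 higher and 1, the homeodomain factor Six6, at least 2 lower, with a median of 1.77. Detected members numbered 12, 11, 15 and 10 in cells 1, 2, 3 and 11, and 5 to 11 in the others, of which cell 4 had the 11. Crym, a thyroid hormone-binding protein, was at 12.29, 12.73 and 13.50 in cells 1, 2 and 11 and higher still in cell 3, and only cell 4, at 12.35, was detected among the others. Lhx2, a homeodomain factor of progenitors and Müller glia, was at 12.99, 10.80, 13.75 and 14.09, with cells 9 and 4 detected among the others at 14.13 and 12.38. Crym and Lhx2 thus overlapped through 1 and 2 cells.

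Pax6, a homeodomain factor kept by amacrine cells as well as progenitors, was at 12.19, 14.58, 13.17 and 15.51 in the positive cells and was detected in 4 of the 9 others, among them cells 12 and 13 at 14.52 and 14.05. Car2, a carbonic anhydrase, was at 11.90 to 13.89 in the positive cells and detected in 2 of the 9 others. Genes shared with Müller glia, the glia that arise from late progenitors, had 5 of 16 members at least 2 higher (Rlbp1, Dkk3, Slc1a3, Vim and Dbi) and 0 at least 2 lower, with a median of 0.87. Rlbp1, a retinoid carrier of these glia, was at 10.34, 11.48, 13.39 and 12.81, with cells 6 and 4 detected among the others at 13.35 and 13.19. Vim, the intermediate filament vimentin, was at 14.89, 14.08 and 14.75 in cells 1, 2 and 3 but at 7.57 in cell 11, and was detected in 6 of the 9 others. Without cell 2 the median of the Müller list was 1.59, against 0.87, but within sets of arrays it was -0.08 (low 18S set), 0.12 (high 18S set) and 0.12 (Gapdh ratio not above 3).

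Notch receptors and effectors had 3 of 24 members at least 2 higher (Dtx4, Id3 and Heyl) and 1, Dtx1, at least 2 lower, with a median of 0.65. Dtx4, a Deltex ubiquitin ligase, was at the floor in cell 1 and at 12.17, 11.97 and 13.33 in cells 2, 3 and 11, and only cell 4, at 13.45, was detected among the others. Id3, an inhibitor of bHLH factors, had a mean of 9.71 ± 1.87 against 6.74 ± 2.55. Heyl, a bHLH repressor and Notch target, was at 13.36 and 12.47 in cells 3 and 11, at the floor in cells 1 and 2, and at 4.64 to 8.33 in the others. Dtx1 had a difference of -2.32, with 1 of 4 positive and 5 of 9 other cells detected. Dtx4 was therefore bright in 3 and Heyl in 2 of the 4 positive cells.

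Proneural factors and Notch ligands had a median of -0.59, with 1 of 24, Neurod2, at least 2 higher and 1, Sox11, at least 2 lower. Insm1, a zinc-finger factor of newly formed neurons, was detected in 0 of 4 positive and 4 of 9 other cells, at 4.64 to 8.37 against 4.64 to 11.96. Sox11, a factor of immature neurons, was detected in cell 2 alone of the positive cells and in 5 of the others, with a difference of -2.85. Neurod2 was detected in cell 11, at 13.94, and in cell 13, at 11.48. Neurod1, a bHLH factor of photoreceptor precursors that was likewise chosen with its values in view, had signal in all 13 cells, at 13.22 to 14.55 in the positive and 12.81 to 16.03 in the other cells.

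Photoreceptor fate factors were carried by Mki67-positive and other cells alike. Of 15 members, 1, Nrl, was at least 2 higher and 0 at least 2 lower, with a median of -0.49. Nrl, the factor that fixes the rod fate, was at 12.32, 14.57, 15.19 and 12.91 in cells 1, 2, 3 and 11. It was detected in 5 of the 9 others, which ran from 4.64 to 16.84. Crx, a homeodomain factor of rods and cones, was detected in all 4 positive cells, at 13.05 to 13.98, and in 6 of the 9 others, and was at the floor in cells 12 and 13. Thus each Mki67-positive N1-CKO cell carried strong Nrl and Crx signals, with no separation from the others.

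Later genes of photoreceptor structure and phototransduction were uneven among the positive cells. Of 37 members, 7 were at least 2 higher and 1, Ccdc136, at least 2 lower, and the median was 0. Cells 1, 2 and 3 had 10, 11 and 13 members detected and cell 11 had 1. The others had 1 to 11, the 11 being those of cell 10. Sag, rod arrestin, was at 12.95, 12.89 and 11.33 in cells 1, 2 and 3, at the floor in cell 11, and at most 6.83 in the others. Pdc, phosducin, which binds transducin subunits, was at 13.65, 14.33 and 14.38 in cells 1, 2 and 3 and at 6.25 in cell 11, but at 16.38 in cell 10. Rp1, a microtubule protein of the outer segment, was at 11.09 and 10.74 in cells 2 and 3 and detected in no other N1-CKO cell, with 4.76 the highest of the others. Rbp3, the retinoid-binding protein between photoreceptors and pigment epithelium, was at 13.23, 13.76 and 14.36 in cells 1, 2 and 3, at the floor in cell 11, and detected in 4 of the 9 others. The 3 cells with the most mitotic genes were therefore also 3 of the 4 with the most photoreceptor genes, as a description of these 13 cells.

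Neuronal genes of the cytoskeleton, splicing and synapse were not lower in the positive cells. Of 57 members, 9 were at least 2 higher and 1, the tubulin-binding protein Stmn3, at least 2 lower, with a median of 0.11, and 16 to 24 were detected in each positive cell against 11 to 24 in the others. Syp, the synaptic vesicle protein synaptophysin, was at 14.05, 12.92, 11.31 and 14.53 in cells 1, 2, 3 and 11 and detected in 2 of the 9 others, cells 6 and 7, at 14.67 and 14.56. Kif5a, a neuronal kinesin, was at the floor in cell 1, at 11.59, 11.44 and 12.97 in cells 2, 3 and 11, and detected in no other cell. Map2, of dendritic microtubules, was detected in all 4 positive and 4 of 9 other cells. Sv2b, a synaptic vesicle protein, was highest in cell 10, at 15.30.

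Markers of other retinal neurons were spread over few cells. Of 19 amacrine and horizontal genes, 3 were at least 2 higher (Slc6a9, Tfap2b and Barhl2) and 0 at least 2 lower, with a median of 0.06. Cell 11 had 6 members detected and cell 2 had 5, cells 1 and 3 had 1 and 2, and among the others cell 13 had 7 and cell 12 had 4. Tfap2b, an AP-2 factor of amacrine cells, was at 14.40 in cell 11, 14.13 in cell 13 and 13.96 in cell 12, and also at 12.02 and 11.90 in cells 2 and 3. Gad2, which makes the transmitter GABA, was detected in cells 2, 11, 12 and 13, at 12.64, 12.35, 11.80 and 13.87. Slc6a9, a glycine transporter, was at 12.10, 12.17 and 12.79 in cells 1, 2 and 11 and at 12.63 in cell 10. Cell 11 had 6 amacrine and 1 photoreceptor structure member. In these 2 counts alone it was nearer to cells 12 and 13, with 4 and 7 amacrine and 3 and 1 structure members, than to cells 1 and 3. Other lists differed. Photoreceptor fate members numbered 5 in cell 11, 7 and 4 in cells 1 and 3, and 2 and 1 in cells 12 and 13. Progenitor members numbered 10 in cell 11, 12 and 15 in cells 1 and 3, and 6 in each of cells 12 and 13. Nrl and Crx, at 12.91 and 13.05 in cell 11, were at the floor in cells 12 and 13.

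Of 15 bipolar cell genes, 0 were at least 2 higher and 1 at least 2 lower. That was Lhx4, a LIM-homeodomain factor also found in photoreceptors, detected in 0 of 4 positive and 5 of 9 other cells with a difference of -2.77. Irx6 was detected only in cells 1 and 3, at 11.63 and 11.06, and Prdm8 in cell 1 and 3 of the others. Of 11 ganglion cell genes, Ebf3 was detected in 2 cells of each group and Isl2 in 1 other cell. For cells outside the neural retina, 4 of 41 marker genes were detected in any N1-CKO cell: Kdr in 1 positive and 2 other cells, and Ttr, Mitf and Hba-a1 in 1 other cell each. All 11 microglial and 5 astrocyte markers were detected in 0 of 13 cells, and mean levels of the microglial list lay between 4.66 and 5.49 in positive and between 4.76 and 6.33 in other cells.

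Immediate early genes, which respond within minutes to growth factors and to handling, had 3 of 15 members at least 2 higher (Fos, Ier5 and Jun) and 0 at least 2 lower, with a median of -0.12. Fos was at 14.49, 13.09, 13.35 and 12.75 in cells 1, 2, 3 and 11 and detected in 4 of the 9 others, up to 13.42. Ier5 was at 12.52, 15.31 and 15.32 in cells 1, 2 and 11 and at 5.35 in cell 3. Jun had 2 detected cells in each group, and Jund was detected in 3 of 4 and 5 of 9. Immediate early signals were thus present in both groups.

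The 12 highest differences were taken among 3159 genes that were detected in at least 4 of the 13 cells and whose share of detected cells differed in the same direction. They were Cop1, Top2a, Dusp16, Ube2c, Rtca, Crym, Racgap1, Cebpzos, Fbxw8, Apoo, Dcps and Eci2, with differences from 7.21 down to 5.92. Cop1, a ubiquitin ligase that targets transcription factors such as Jun, was at 12.03, 11.75, 12.44 and 14.65 in cells 1, 2, 3 and 11. Of all 18193 genes it was the 1 detected in every positive and in none of the other cells, where cell 4, at 10.42, was the highest and the median was 4.64. Dusp16, a phosphatase of the JNK and p38 kinases, was at 13.44, 13.23, 14.15 and 14.15, and cells 8 and 4 were detected at 14.15 and 13.26. Its other probe set gave a difference of 0.88.

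Other genes of this group were of several kinds. Rtca, an RNA cyclase, was at 12.98, 13.44, 11.69 and 13.09 in the positive cells, and only cell 4, at 12.75, was detected among the others. Fbxw8, a substrate receptor of a cullin ubiquitin ligase, had a mean of 12.61 ± 0.79 against 6.45 ± 2.31, and cell 4, at 11.64, was again the other cell detected. Eci2, an enzyme of fatty acid oxidation, was detected in cells 1, 2 and 3 and in cell 4. Apoo, a protein of the mitochondrial inner membrane, and Dcps, which clears the caps of decayed mRNAs, were each detected in 3 positive cells. Cell 4 was thus the highest of the others for Cop1, Rtca, Crym, Fbxw8 and Eci2.

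The 12 lowest differences were those of Rap1b, Nol4, Pnisr, Smug1, Spg21, Ndufa10, Axin1, Rcn2, Svbp, Cisd2, Plcd1 and Coa5, from -5.98 to -4.71. Rap1b, a small GTPase of cell adhesion, was at the floor in cells 1, 2 and 11 and at 9.00 in cell 3, below that array's threshold, whereas 7 of the other 9 cells were detected, with a median of 12.51. Smug1, a glycosylase that removes uracil from DNA, was at the floor in all 4 positive cells and detected in 6 of the others, with a median of 10.95. Axin1, a scaffold of the complex that destroys β-catenin, was at 6.93, 4.64, 7.90 and 4.64 in cells 1, 2, 3 and 11 and at 8.02 to 12.97 in the others, so the groups did not overlap. Pnisr, a splicing-associated protein, was detected in all 9 other cells, at 9.31 to 14.12, and in cell 2 alone of the positive ones, at 12.02.

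Mitochondrial genes appeared on this side too: Ndufa10, a subunit of respiratory complex I, was detected in cell 3 and in 7 of the 9 others, and Coa5, an assembly factor of cytochrome c oxidase, in 0 of 4 and 5 of 9. A further Ndufa10 probe set showed practically no difference, 4.7e-06. Cisd2, an iron-sulfur protein of the endoplasmic reticulum and mitochondria, was at most 6.17 in the positive cells and detected in 5 of the others. Of the 86 genes named by rule, 21 had a further probe set whose difference had the other sign, 28 of 109 further probe sets. This count takes the sign alone, however small the difference, and so includes that of Ndufa10.

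**Figure D3:**
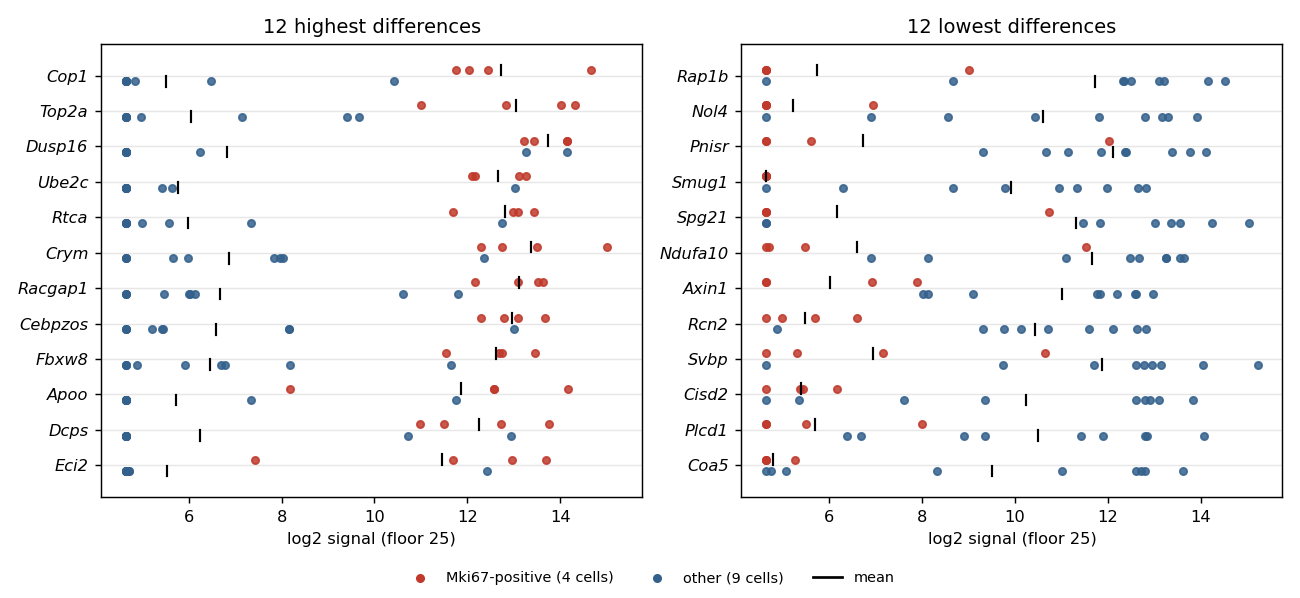
Log2 signal of each N1-CKO cell for the 12 genes with the highest (left) and the 12 with the lowest difference (right), with black bars at the group means of 4 Mki67-positive and 9 other cells. The positive cells of Top2a, Racgap1 and Cop1 all lie above the other cells, those of Axin1 all lie below, and the other genes overlap between the groups.

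Beyond the genes already named, those whose groups did not overlap were mostly dim, and they are named here after their values were seen. Aldh1a1, a retinaldehyde dehydrogenase of the dorsal retina, was at 11.98, 11.02, 13.49 and 7.37 in cells 1, 2, 3 and 11 and at most 6.89 in the others, although only cells 1 and 3 passed their thresholds. Rbm34, Rpf1, Cmc2, Lmo1, Arhgap42 and Doc2a were detected in 1 or 2 of the positive cells and in none of the others. Below the others in every positive cell were, besides Axin1, Nlrp4c, Otos, Rmst, St6galnac5, Syt8, Tmem39b and Unc5c. Of these 8, 5 were detected in no N1-CKO cell. The number of such genes was 18 in all, and 77 when cell 11 was left out, 74 without cell 1, 63 without cell 3 and 61 without cell 2. Leaving out one of the other cells gave 24 to 43, with 43 without cell 12 and 40 without cell 4. A smaller group is more easily separated, by the count's own construction.

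Because the Mki67-positive cells were spread over both 18S sets, differences were also taken within each set. In the low set, cells 1 and 2 against 6 others, the median was 2.53 for the mitotic kinase list, 0.31 for the spindle list, 1.74 for the chromatin list, 0.35 for the replication list and 2.39 for the progenitor list, beside -0.22 for all genes. In the high set, cells 3 and 11 against cells 8, 9 and 10, the same medians were 0.58, 1.05, 1.68, 1.42 and 0.84, beside -0.59 for all genes. Among the 8 cells whose Gapdh ratio did not exceed 3, which hold all 4 positive cells, they were 1.33, 0.52, 2.50, 1.12 and 0.97, beside -0.58. Each of these 5 lists kept a median above that of all genes within each set. Photoreceptor fate factors had a median of 0.85 in the low set and of -1.48 in the high set, so that their direction differed between the sets.

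Of the 85 genes named by rule besides Mki67, 82 kept the sign of their difference in the low set, 79 in the high set and 83 among cells whose Gapdh ratio did not exceed 3. Top2a differed by 7.89 in the low set, 5.58 in the high set and 6.57 among cells whose Gapdh ratio did not exceed 3. Ube2c differed by 6.34, 7.99 and 7.77, and Racgap1 by 6.39, 6.27 and 4.83. Mcm7 differed by 3.80, 8.05 and 7.15, and Ccnd1 by 3.03, 5.56 and 4.16. The difference of Rbp3 had opposite signs, 5.97 in the low and -2.49 in the high set, where cell 10 had the highest value.

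**Figure D4:**
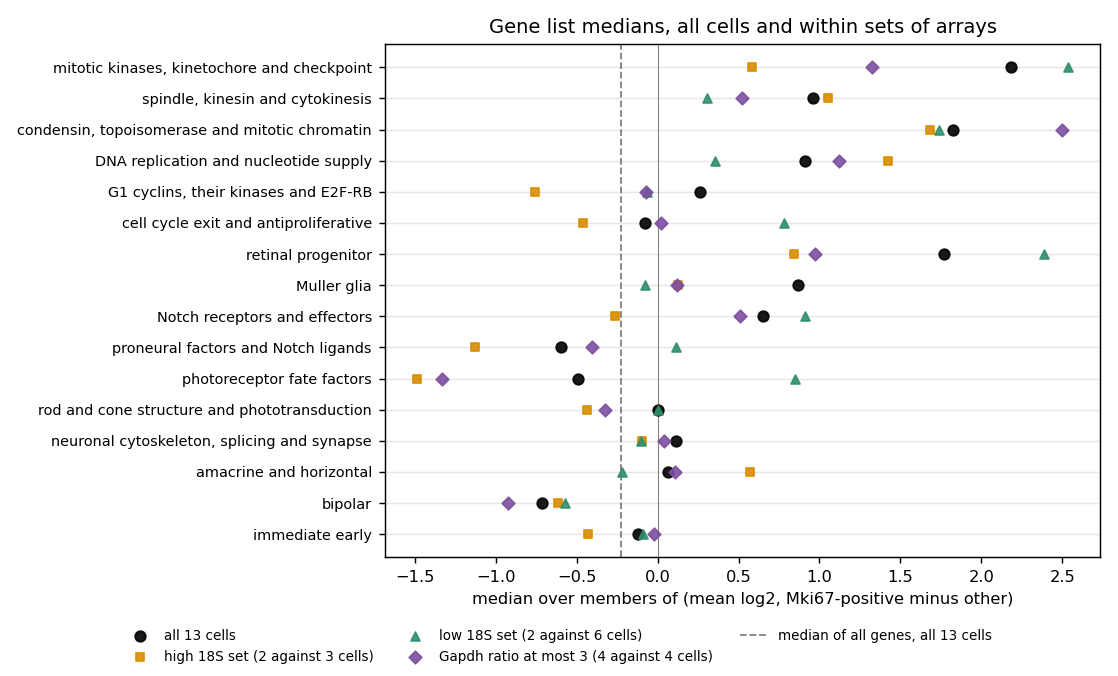
Median difference of 16 gene lists over all 13 N1-CKO cells (black) and within the low 18S set, the high 18S set and the cells whose Gapdh ratio did not exceed 3; the dashed line marks the median of all genes, -0.22. The mitotic, spindle, chromatin, replication and progenitor lists lie to the right of 0 in every set, and photoreceptor fate factors lie on both sides.

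The rule was also applied to the WT cells, which did not take part in choosing the N1-CKO groups. Of 13 WT cells 11 were Mki67-positive, and only cells 7 and 9 were not, so this contrast rests on 2 cells. The mean was higher in the WT-positive cells for 48 of 53 mitotic kinase genes, 30 of 37 spindle genes, 23 of 27 chromatin genes and 53 of 61 replication genes, beside 55.4% of all genes. Of the 12 genes highest in N1-CKO, 10 were also higher in the WT-positive cells, Cebpzos by only 0.0086, and of the 12 lowest, 5 were also lower. Among all genes detected in at least 4 of the 13 N1-CKO cells, 59.2% were higher and 40.8% lower in the WT-positive cells. The 5 of 12 (41.7%) was thus near the share of such genes. Top2a was detected in 10 of 11 WT-positive and 0 of 2 other WT cells, and Racgap1 in 10 and 1. Cop1 was detected in only 2 of the 11 and in 0 of the 2, with a difference of 0.38. Crym (-0.19) and Apoo (-5.84) were the 2 of the 12 highest that were lower in the WT-positive cells. Ccnd1 was lower there too, by -0.33. Of the replication genes described above, Rrm1 (-0.92) and Mcm2 (-1.34) were lower, and Mcm7 (2.16) and Rfc4 (3.95) were higher. Smug1, Axin1 and Rap1b had differences of the opposite sign in WT, 1.54, 2.05 and 5.01.

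Between Mki67-positive cells of both genotypes, mitotic kinase members detected numbered 6 to 22 in the 4 N1-CKO cells (median 18) and 3 to 44 in the 11 WT cells (median 28), so their ranges overlapped. Photoreceptor structure members numbered 1 to 13 (median 10.5) and 1 to 11 (median 4.0).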

How the data were processed

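The authors deposited 1 intensity per probe set and array, not log-transformed, and the submitters' processing notes name MAS5. MAS5 summarises the probes of each set and scales the array; the deposited intensities had a mean of 500.0 on every array after trimming 2% from each end. Not given in the sources used here are the MAS5 version and the build behind the array annotation. Per the labels' protocols, cDNA was primed with oligo dT and amplified by PCR, so signal reflects mainly the 3′ ends of transcripts.

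Here, signals below 25 were raised to 25 and log2 was taken. Of 45101 probe sets, 64 are controls, 34958 had 1 gene symbol, 932 had several and were left out, and 9160 others stayed unnamed. Each of 18194 genes was represented by its probe set of highest mean log2 over 26 cells. Each difference is the mean log2 of Mki67-positive cells minus that of the other N1-CKO cells, counted at 2 or more (4-fold). No statistical test was made. The number of arrays limits the precision. The 22 lists hold 558 genes, 529 of them measured. Named genes were the 12 genes with the highest and the 12 with the lowest difference of those detected in 4 cells or more, with up to 4 members of each list detected in at least 2 cells, Ccnd1, and list members whose groups do not overlap. The members and lists were chosen with earlier results of these data known. Alternatives were other floors, quantile normalization, means over probe sets, medians over cells, other Mki67 thresholds, sets of arrays and leaving out each cell. Promoters came from RefSeq on GRCm38.p6. Python 3.11.15, numpy 2.4.6, pandas 2.3.3 and matplotlib 3.10.9 were used.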

Additional observations from a re-analysis of the deposited data

Results flagged for a closer look

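In each group of N1-CKO cells, a value was singled out when its gap to the next cell was a large share of the group's whole range (Dixon's 95% limit). That limit is passed in about 1 in 20 groups of normally distributed values. The signals here have a floor, and many of the genes were picked for large differences, so this rate does not apply to them. In 187 groups tested, 35 values were singled out, and the count is a description only. All values are log2 signals.

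Cell 4, which had no Mki67 signal, was the highest of the other cells in 9 cases. Its mean over the replication list was 8.42. It was at 10.42 for Cop1, 12.75 for Rtca, 12.35 for Crym, 11.64 for Fbxw8 and 12.42 for Eci2. It was also at 12.70 for Rfc4, 12.93 for Zfp36l1 and 13.45 for Dtx4. Whether the brightness of its array, 5711 probe sets above the common signal, has a part in this was not tested.

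Cell 10, nearest to the Mki67 threshold at 9.23, was the highest of the others for Kif22 (8.96), Spag5 (8.41), Pdc (16.38) and Slc6a9 (12.63). Cell 11 was the lowest of the Mki67-positive cells for Cdca3 (4.64), Pdc (6.25), Rbp3 (4.64) and Vim (7.57), and for the mean of the cell cycle exit list (7.39), and was the highest for Cdk6 (6.14).

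Other single cells of the Mki67-positive group stood apart as follows. Cell 3 was highest for Rap1b (9.00) and Ndufa10 (11.54) and lowest for Slc6a9 (7.16). Cell 2 was highest for Nol4 (6.94), Pnisr (12.02), Spg21 (10.73) and Coa5 (5.27). Cell 1 was lowest for Dtx4 (4.64). Among the other cells, cell 6 was highest for Ube2c (13.03), cell 5 for Cebpzos (13.00), cell 7 for Apoo (11.76), cell 13 for Neurod2 (11.48) and cell 12 for Slc1a3 (11.10). Cell 9 was lowest for Rcn2 (4.87) and cell 12 for Tcf4 (4.64).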

How the results depend on the processing

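The count of genes at least 4-fold higher in Mki67-positive cells, 1472, was 934 with a floor of 100, 792 when a gene's probe sets were averaged, 2252 with medians over cells, 2255 within the high and 2314 within the low 18S set. The count of lower genes, 749, was 316 with a floor of 100, 2611 with a floor of 1, 350 when probe sets were averaged, 2136 among cells whose Gapdh ratio did not exceed 3, 3475 within the high and 1258 within the low 18S set. The 18 genes whose groups do not overlap became 9 with a floor of 100, 43 with a floor of 1, 31 after quantile normalization, 9 among genes detected in 2 cells, 663 with the Gapdh ratio limited to 3, 3583 within the high and 541 within the low 18S set, where fewer cells are compared, and 24 to 77 when 1 cell was left out. The median of the mitotic kinase list was 0.94 when probe sets were averaged and 0.58 within the high 18S set, that of the spindle list 2.08 over members detected in 2 cells, and that of the exit list 0.78 within the low 18S set and -0.16 to 0.63 when 1 cell was left out, 0.63 being without cell 11. The progenitor list gave 2.88 over members detected in 2 cells, 0.77 with the Mki67 threshold at percentile 80, and 0.84 within the high 18S set. Percentile 80 moved cells 10 and 13 to the positive group, and percentile 95 chose the same 4 cells. Differences past 4-fold that turned sign were Cdca3 without shared probe sets (-0.29), Mxd4 (0.39), Rbp3 (-2.49) and Jun (-0.43) within the high 18S set, Heyl within the low set (-1.09) and Dtx1 with the Gapdh ratio limited to 3 (0.88). The cause of these changes was not tested. Over the 85 named genes other than Mki67, 2087 of 2115 values under all alternatives stayed within 1 SD of the reported difference. That SD is the larger of the 2 groups' spreads between cells, 4.99 for Ebf3, so it is a wide limit and does not measure the precision of a difference. The median of all genes, -0.22, moved by 0.15 under quantile normalization. No paired analysis was possible because cell numbers are shared between groups only as numbers and no test was made.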
